A study of Mus musculus with 7 samples.

Results

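Hmox1+ monocytes are a small cluster of donor bone marrow-derived cells in the mouse epidermis after transplantation. They are the 259 of 11899 donor cells that the authors' deposited annotation assigns to the cluster Hmox1_Mono, taken over all donor libraries. BMT replicate 1 held 24 of them, BMT replicate 2 held 123, BMT replicate 3 held 6 and the BMT + T cells library held 106. The clusters were cut from the same expression values, so their differences from other clusters are described here without a test. The clusters set beside them are Mono, the classical monocytes (938 cells), and Mrc1_Mac, the Mrc1+ macrophages (3123 cells).

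Donor cells came from female CD45.1 C57BL/6 bone marrow, and the recipients were male C57BL/6 mice carrying CD45.2 that had received lethal irradiation. CD11b+MHCII+ cells were sorted from the epidermis 3 weeks after bone marrow transplant (BMT) and profiled by single-cell RNA sequencing with the 10x 5' kit. The treatment labels name added T cells for 1 library and BMT for the other 3. The design text names CD4 T cells and Matahari CD8 cells, which carry a receptor for a male antigen, for the recipients in general. The paper likewise describes its donor cells as sorted after BMT with Matahari T cells, and does not name libraries. The 3 BMT libraries may thus also have received T cells. Each library was made from pooled animals, and the T cell label and its single library cannot be told apart. The gate selected cells with surface MHC class II. Donor libraries held 226 to 8382 cells and 2982296 to 64343817 UMIs. Libraries shared 8 cell barcodes, of which 0 belonged to Hmox1+ monocytes.

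Monocytes that enter inflamed skin can become macrophages, dendritic-like cells or, in the epidermis, replacements for Langerhans cells, the resident phagocytes of that layer. Hmox1 encodes heme oxygenase 1, which breaks heme down into biliverdin, iron and carbon monoxide. It is induced by heme, oxidative stress and hypoxia, through the transcription factor NRF2 and the repressor BACH1 among others. Id2 encodes an inhibitor of DNA binding that Langerhans cells need for their development.

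The marker genes were first described across the donor clusters. Levels are given as CP10K, the UMIs of a gene per 10000 UMIs of a cell, averaged over the cells of a library. Hmox1 (GRCm38 chromosome 8, 75093618 to 75100593) was at 9.01 CP10K in the Hmox1+ monocytes of BMT replicate 1, 7.16 in BMT replicate 2 and 21.0 in the BMT + T cells library. These means rest on 199, 339 and 1721 UMIs. In Mono its level was 1.82 ± 0.859 CP10K (SD, n = 4 libraries) and in Mrc1+ macrophages 1.99 ± 0.248 (n = 4). Every library with 20 or more Hmox1+ monocytes thus lay above every library of both other clusters. The cluster is named for Hmox1 and was cut from these same values, so this separation follows largely from that choice. On the log2(CP10K + 0.1) scale Hmox1 was higher than in Mono by 2.90 ± 0.33 (SD, n = 3) and higher than in Mrc1+ macrophages by 2.38 ± 0.75. It was lowest in the monocyte-derived Langerhans cells (mLC), at 0.159 ± 0.0708 CP10K in resident mLC (Res_mLC, n = 4).

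Id2 (chromosome 12, 25093799 to 25096092) was at 11.7, 11.2 and 10.1 CP10K in BMT replicates 1 and 2 and the BMT + T cells library. Mono held 5.18 ± 0.869 and Mrc1+ macrophages 4.36 ± 1.34 CP10K (n = 4 each). Id2 was also high in the mLC clusters, where resident mLC held 9.06 ± 0.792 (n = 4) and cycling mLC 8.39 ± 1.53 (n = 3). Cd207, which encodes langerin, was at 0, 0.0461 and 0.232 CP10K, and the adhesion gene Epcam at 0.0336, 0.293 and 0.655.

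**Figure D1:**
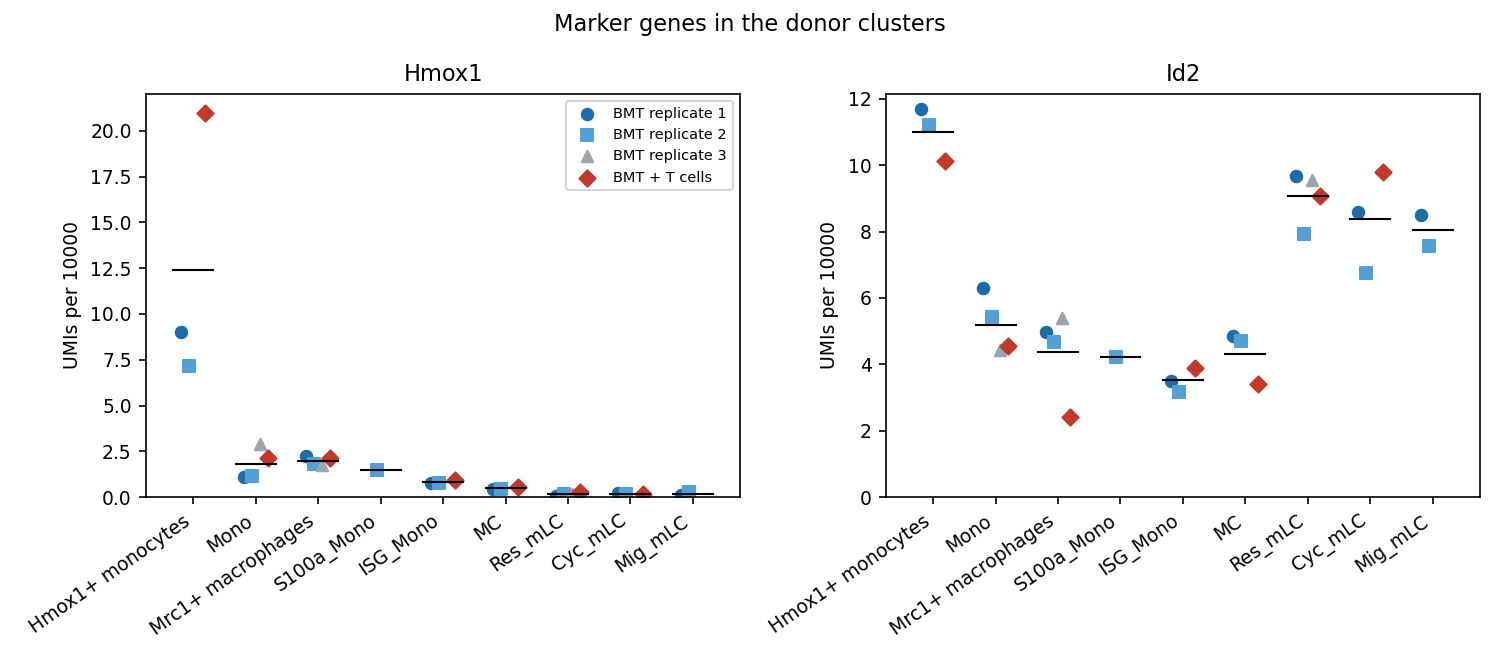
Mean level of Hmox1 (left) and Id2 (right) in UMIs per 10000 in the 9 donor clusters; each point is 1 library with 20 or more cells of the cluster and the black line is the mean over those libraries. Hmox1 lies at 7.16 or more in Hmox1+ monocytes and at 2.88 or less in all others, while Id2 is also high in the 3 mLC clusters.

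At single-cell level the counts were thinned to 2000 UMIs per cell, which left out 26 of the 259 cells. A UMI of Hmox1 was then found in 45.8% of the Hmox1+ monocytes of BMT replicate 1, 50.0% of BMT replicate 2 and 64.6% of the BMT + T cells library. Without thinning the shares were 79.2, 56.9 and 86.8%. At the same depth 14.6 to 26.3% of Mono and 21.7 to 30.1% of Mrc1+ macrophages held one. Resident mLC, which served as the background for free RNA, held one in 3.11 to 6.38% of cells. A UMI of Hmox1 was thus more frequent in the cluster but was not seen in every cell. Thinning left out 0, 15 and 10 Hmox1+ monocytes of the 3 libraries, 3 to 20 Mono and 13 to 476 Mrc1+ macrophages per library.

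The genes higher in Hmox1+ monocytes than in each other cluster of a library were listed next. Of the 8 other clusters, 7, 8 and 6 had 20 or more cells in the 3 libraries, and S100a_Mono entered in BMT replicate 2 only. Of 6952 genes described, 283 had a higher mean than in each other donor cluster with 20 or more cells in all 3 libraries, and 22 of these by more than 1 log2 unit. The first 15 of the 283 by the median gap to the next cluster were Ctsl, Clec4d, Vegfa, Thbs1, Pdpn, Spp1, Sdc1, Ptges, Met, Hmox1, Hilpda, 1700012B09Rik, Wwc1, Nt5e and Arg1. Hmox1 itself came behind 9 others, with gaps of 1.95, 1.94 and 3.22. The next highest cluster was most often Mrc1_Mac or, in BMT replicate 2, the S100a_Mono cluster. The cells were clustered on these values, so the list is a description. Genes were kept for a mean of at least 0.1 CP10K over the library means of Hmox1+ monocytes, Mono and Mrc1+ macrophages together. Ptges, 1700012B09Rik and Nt5e reached it only through Hmox1+ monocytes, at 0.580, 0.470 and 0.667. Their means were 0.0303, 0.0156 and 0.0311 in Mono and 0.125, 0.00446 and 0.122 in Mrc1+ macrophages. Their place in the list is thus partly set by this filter.

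Several of the 15 encode proteins of the cell surface. Pdpn, podoplanin, a mucin-like glycoprotein that binds the platelet receptor CLEC-2, was at 18.2, 10.3 and 6.90 CP10K. Its means in Mono were 0.0539 to 0.361 and in Mrc1+ macrophages 0.602 to 1.92. Sdc1, the heparan sulfate proteoglycan syndecan 1, was at 4.82, 3.41 and 5.54, and Met, the receptor for hepatocyte growth factor, at 1.73, 2.46 and 2.30. For these 3 genes no library of Hmox1+ monocytes overlapped with Mono or Mrc1+ macrophages. They were listed for their higher means in each library, so this lack of overlap follows largely from that choice. Nt5e, the ecto-enzyme CD73 that makes adenosine from AMP, was lower in level, at 0.496, 0.825 and 0.681.

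Clec4d and Clec4e encode C-type lectins, also named MCL and Mincle, that pair to sense mycobacterial glycolipid and, for Mincle, dying cells. Clec4d was at 14.0, 10.6 and 9.80 CP10K, against 0.401 to 1.06 in Mono and 0.716 to 1.58 in Mrc1+ macrophages. In BMT replicate 2 the S100a_Mono cluster was only 0.57 log2 units below. Clec4e was at 12.4, 7.80 and 9.93, which is higher than in Mono by 2.00 ± 0.78 and than in Mrc1+ macrophages by 3.36 ± 0.39 (log2, n = 3). Both lectins were higher in all 3 libraries, which follows largely from how they were chosen.

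Among secreted factors, Spp1 had the largest median difference from Mono. It encodes osteopontin, a matrix protein and cytokine of wound and lipid-associated macrophages. Its levels were 37.3, 27.0 and 38.1 CP10K, against 0.311 ± 0.252 in Mono and 3.49 ± 2.77 in Mrc1+ macrophages (n = 4 each). A UMI of Spp1 was found at 2000 UMIs per cell in 50.0, 49.1 and 66.7% of Hmox1+ monocytes. The shares were 1.27 to 5.83% in Mono, 21.2 to 33.3% in Mrc1+ macrophages and 8.51 to 18.6% in resident mLC. All 3 libraries of Hmox1+ monocytes lay above each of these clusters. Spp1 was named for its higher means, so this lack of overlap follows largely from that choice.

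Vegfa, the main angiogenic growth factor, was at 1.88, 4.14 and 2.30 CP10K. It was higher than in Mono by 3.61 ± 0.07 and than in Mrc1+ macrophages by 2.72 ± 0.39. Slpi, a secreted inhibitor of leukocyte serine proteases, was at 22.3, 4.98 and 7.11, with BMT replicate 1 well above the other libraries, and S100a_Mono of BMT replicate 2 held more, 8.33. Ptges, which makes prostaglandin E2, rested on 3 UMIs in BMT replicate 1 and on 33 and 77 in the others.

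Thbs1, thrombospondin 1, an adhesive glycoprotein that activates latent TGF-beta, varied widely between the libraries. It was at 21.9 and 28.6 CP10K in BMT replicates 1 and 2, and the library labelled with T cells held 3.51. The UMIs came from 16 of 24, 58 of 123 and 36 of 106 cells. Even the lowest of these means lay above the highest in Mono, 0.908, and in Mrc1+ macrophages, 1.02. It lay below S100a_Mono of BMT replicate 2, which held 5.34. Thbs1 was likewise listed for its higher means in each library, so the lack of overlap with Mono and Mrc1+ macrophages follows largely from that choice.

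Ctsl was even across the libraries. It encodes cathepsin L, a lysosomal cysteine protease, and was at 31.9, 33.4 and 30.7 CP10K, against 1.54 ± 0.477 in Mono and 4.12 ± 1.95 in Mrc1+ macrophages. Arg1, arginase 1, which turns arginine into ornithine and urea, was at 4.12, 40.0 and 22.1. In BMT replicate 1 few cells held a UMI, 5 of 24 with a UMI, against 106 of 123 and 89 of 106. In each library Arg1 was nevertheless higher than in Mrc1+ macrophages, by 1.76, 1.79 and 2.62, and those macrophages were themselves low in BMT replicate 1, at 1.15 CP10K against 11.5 in BMT replicate 2. Hilpda, an inhibitor of lipid droplet breakdown that hypoxia induces, was at 2.78, 4.47 and 5.30.

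**Figure D2:**
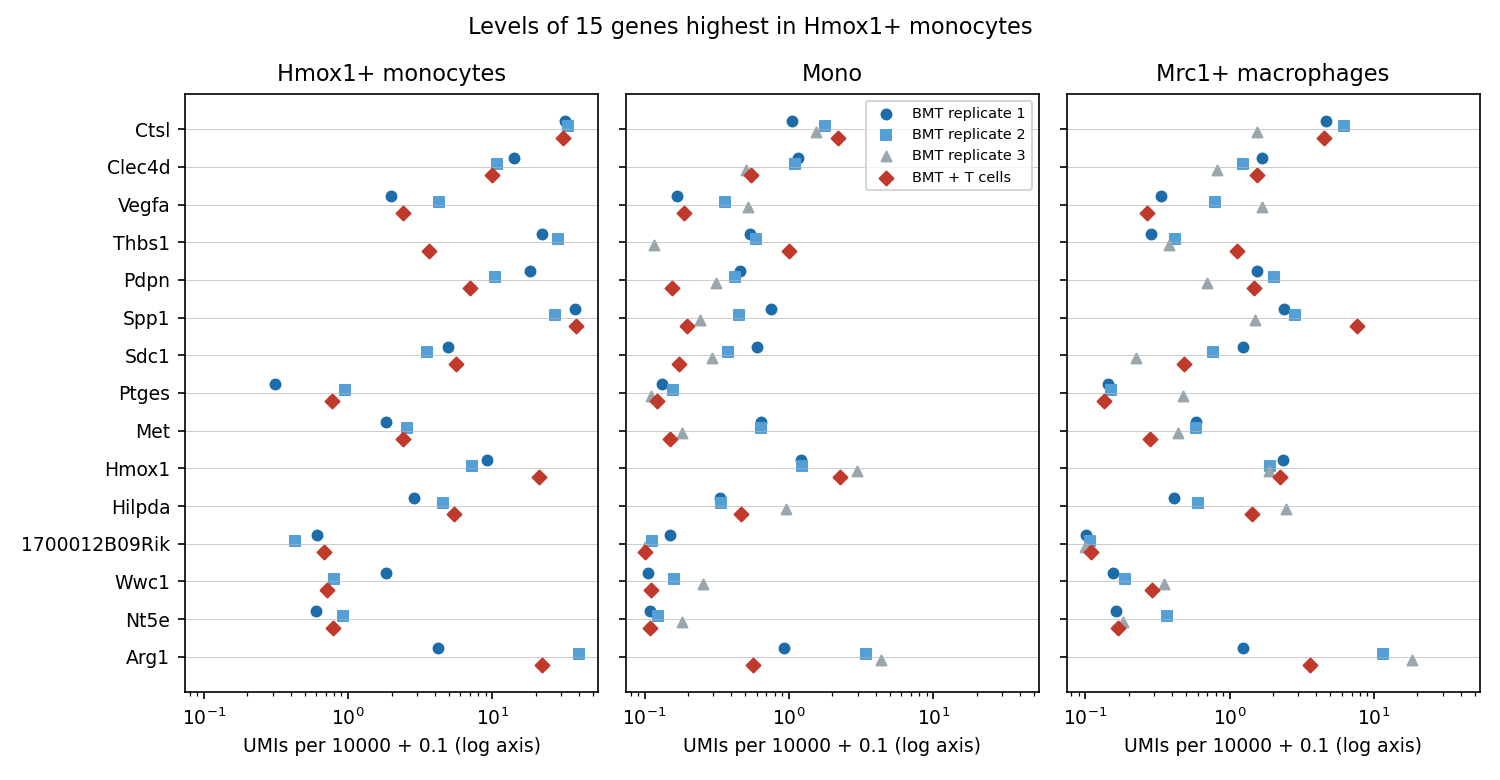
Levels of the 15 genes with the largest gap to the next cluster, as UMIs per 10000 plus 0.1 on a log axis, in Hmox1+ monocytes, Mono and Mrc1+ macrophages; each point is 1 library with 20 or more cells. Ctsl lies within 30.7 to 33.4 in all 3 libraries of Hmox1+ monocytes, while Arg1 and Thbs1 spread from 4.12 to 40.0 and from 3.51 to 28.6.

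The 15 genes were then counted in single cells. At 2000 UMIs, Hmox1+ monocytes held a UMI of a median of 6 of the 15 in each of the 3 libraries, with quartiles of 3.75 and 7 in BMT replicate 1, 5 and 8 in BMT replicate 2 and 4.75 and 8 in the BMT + T cells library. Mono held a median of 0 or 1 and Mrc1+ macrophages of 1 or 2. The 15 were chosen from these same cells, so the gap is a description. Several of the genes were thus seen together in most of the cells, although the range in BMT replicate 2 went from 0 to 12.

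**Figure D3:**
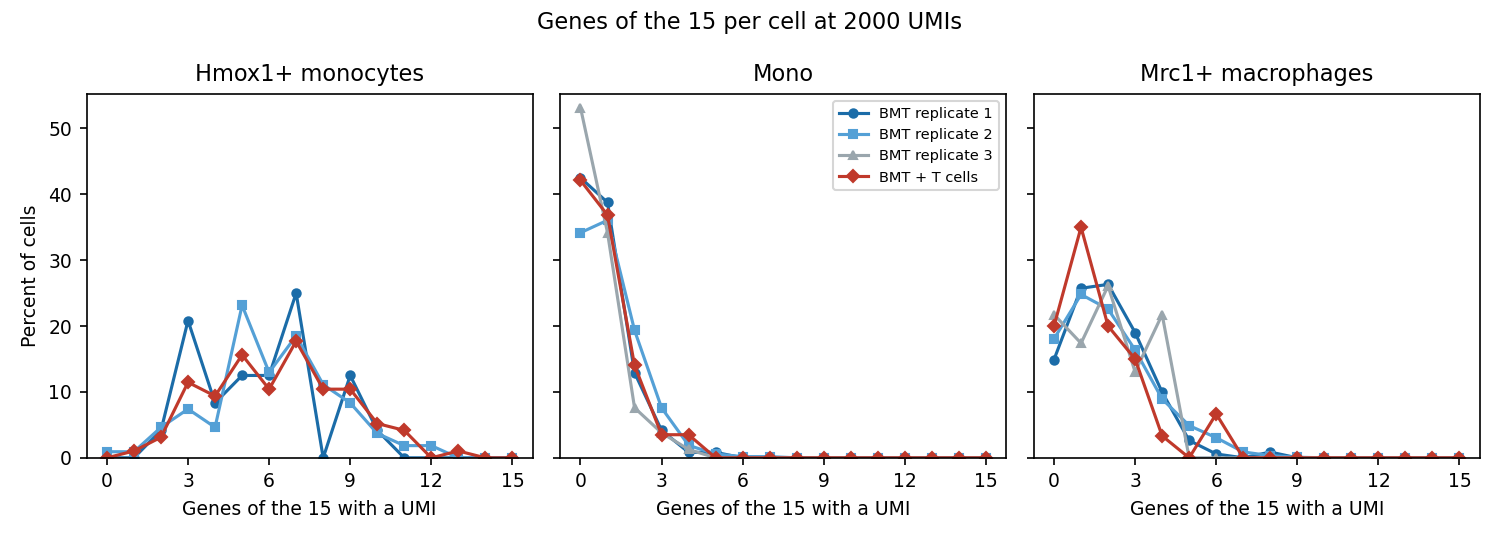
Share of cells in percent by the number of the 15 genes with at least 1 UMI, after thinning each cell to 2000 UMIs; each line is 1 library. Hmox1+ monocytes centre on a median of 6 genes in all 3 libraries, Mono on 0 or 1 and Mrc1+ macrophages on 1 or 2.

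Vegfa and Hilpda are classical targets of the hypoxia-inducible factors, which bind DNA at a core of ACGTG or GCGTG. The 250 bases before the start sites of the 15 genes were therefore read for these letters on both strands. RefSeq (GRCm38.p6) gave a window for 12 of the 15, and Hmox1, Thbs1 and Arg1 were not analysed here. At least 1 window of 10 of the 12 genes held the letters, as did a window of 41.5% of all 27025 genes. Vegfa had 0 matches in its window at chr17:46032378-46032627. It counted through a window inside the gene, chr17:46025164-46025413, with 2. Hilpda had 0 matches in the window at chr6:29272238-29272487 and 3 in the one at chr6:29272376-29272625. The NRF2 core TGACNNNGC was in a window of 1 of the 12, Met, against 11.5% of all genes, and the AP-1 core TGANTCA in 3 of the 12 against 7.8%. The NRF2 and AP-1 letters can overlap each other, and the letters ACGTG are also part of the E-box CACGTG, which other factors bind. A match is a description of the sequence and not a binding site, and the motifs were chosen after the genes were seen. The windows of the surface protein genes Pdpn (chr4:143299565-143299814, minus strand), Sdc1 (chr12:8771146-8771395, plus strand) and Nt5e (chr9:88327359-88327608, plus strand) are shown, 5' to 3' toward the start site, because each has a single window with 1 place that matches. The match is in capitals, and in Pdpn it is the E-box.
Pdpn: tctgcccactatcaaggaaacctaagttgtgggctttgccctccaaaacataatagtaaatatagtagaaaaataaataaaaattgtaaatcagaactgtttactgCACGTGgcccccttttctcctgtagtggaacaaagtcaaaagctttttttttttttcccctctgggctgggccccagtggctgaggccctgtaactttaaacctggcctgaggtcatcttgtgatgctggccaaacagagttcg
Sdc1: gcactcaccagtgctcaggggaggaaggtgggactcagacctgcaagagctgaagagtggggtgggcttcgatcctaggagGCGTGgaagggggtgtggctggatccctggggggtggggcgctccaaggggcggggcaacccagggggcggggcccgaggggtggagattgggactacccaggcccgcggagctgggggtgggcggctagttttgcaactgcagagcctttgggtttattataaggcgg
Nt5e: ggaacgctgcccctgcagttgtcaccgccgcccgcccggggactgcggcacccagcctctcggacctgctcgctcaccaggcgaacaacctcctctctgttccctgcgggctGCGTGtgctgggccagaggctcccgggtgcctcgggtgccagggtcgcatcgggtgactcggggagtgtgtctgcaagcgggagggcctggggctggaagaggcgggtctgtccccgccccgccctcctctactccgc

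The comparison with Mono asks what distinguishes Hmox1+ monocytes from the other, classical monocytes of the epidermis. Of the 6952 genes, 18 (0.259%) were higher and 12 (0.173%) lower by more than 2 log2 units in all 3 libraries. With a pseudocount of 1, or with means of the log values, 4 were higher and 0 lower. By more than 1 unit, 99 (1.42%) were higher and 76 (1.09%) lower. The median of all genes was -0.12, so the typical gene was slightly lower. The largest medians among the 18 were Spp1 at 5.90, Pdpn 5.31, Slpi 4.63, Ctsl 4.22, Clec4d 3.61, Vegfa 3.57, Arg1 and Hilpda 3.54 each, and Mmp13 and Sdc1 3.22 each. Mmp13 encodes a collagenase, and it differed from Mrc1+ macrophages by 0.96, -0.25 and 0.01. Its value in BMT replicate 1 came from 2 cells.

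Of the genes lower than in Mono, Cxcl9, a T cell-attracting chemokine induced by interferon gamma, was at 0.294, 0.721 and 0.155 CP10K in Hmox1+ monocytes. In Mono it was at 26.1, 19.6, 0.975 and 2.76 in BMT replicates 1 to 3 and the BMT + T cells library. Against Mrc1+ macrophages its difference was -3.50 ± 0.62. The guanylate-binding protein genes Gbp8 (-2.80 ± 0.24) and Gbp2 (-2.43 ± 0.14), Calhm6 (-3.28 ± 0.08) and Batf3 (-2.81 ± 0.68), a dendritic cell transcription factor gene, were lower in all 3 libraries. So were the chemokine genes Ccl8 (-4.03 ± 1.65) and Ccl5 (-3.10 ± 0.41), the lysozyme gene Lyz1 (-3.72 ± 1.24) and Ly86 (-2.84 ± 0.39), whose product MD-1 binds RP105. Dnase1l3, a secreted nuclease of dendritic cells and macrophages, and Gm9733 were the others of the 10 lowest, at -2.85 ± 0.27 and -2.54 ± 0.07. Ccl8 and Batf3 had no UMI in the Hmox1+ monocytes of BMT replicate 1, so their differences depend on the pseudocount. Few Mono carried Ccl8, since 2.44% of them held a UMI in BMT replicate 1, and in BMT replicate 2 the share was 15.2% in Mono and 17.1% in Hmox1+ monocytes.

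The comparison with Mrc1+ macrophages asks what distinguishes Hmox1+ monocytes from cells on the macrophage path. Here 10 genes (0.144%) were higher and 13 (0.187%) lower by more than 2 in all 3 libraries. With a pseudocount of 1 these were 5 and 0, and with means of the log values 1 and 2. By more than 1, 84 (1.21%) were higher and 93 (1.34%) lower. The 10 were Slpi, Spp1, Clec4e, Vcan, Clec4d, Ifitm1, Rsad2, Ctsl, Vegfa and Pdpn. Vcan encodes versican, a proteoglycan that classical monocytes express. It was at 2.60, 1.66 and 1.67 CP10K against 0 to 0.150 in Mrc1+ macrophages, but did not differ in 1 direction from Mono (0.71, -0.20 and 0.84). Rsad2, the antiviral enzyme viperin, was at 3.43, 4.30 and 1.21. The interferon-stimulated monocytes (ISG_Mono) held as much, at 1.44 to 4.35, and S100a_Mono of BMT replicate 2 held 3.34. Ifitm1, an interferon-induced membrane protein gene, was at 7.94, 7.74 and 2.09, and at 19.4 in S100a_Mono of BMT replicate 2.

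Of the genes lower than in Mrc1+ macrophages, C1qa, of the first complement component, was at 4.53, 7.66 and 12.8 CP10K against 24.4 to 55.8, a difference of -2.44 ± 0.65. Dnase1l3 (-4.12 ± 1.09), the non-classical class I gene H2-M2 (-4.33 ± 1.49), Slamf9 (-3.12 ± 0.55), Itgax, which encodes CD11c (-2.61 ± 0.39), and the cationic amino acid transporter gene Slc7a2 (-3.00 ± 0.23) were lower in all 3 libraries. The chemokine genes Ccl17 (-3.68 ± 1.99) and Ccl24 (-2.97 ± 0.94) were lower as well. The others of the 10 lowest were Cxcl9, AW112010 (-2.91 ± 0.90) and Tnfsf13b (-2.73 ± 0.69), which encodes the B cell factor BAFF. H2-M2, Ccl17 and Tnfsf13b had no UMI in BMT replicate 1. Both comparisons share the Hmox1+ monocytes and are not independent of each other.

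**Figure D4:**
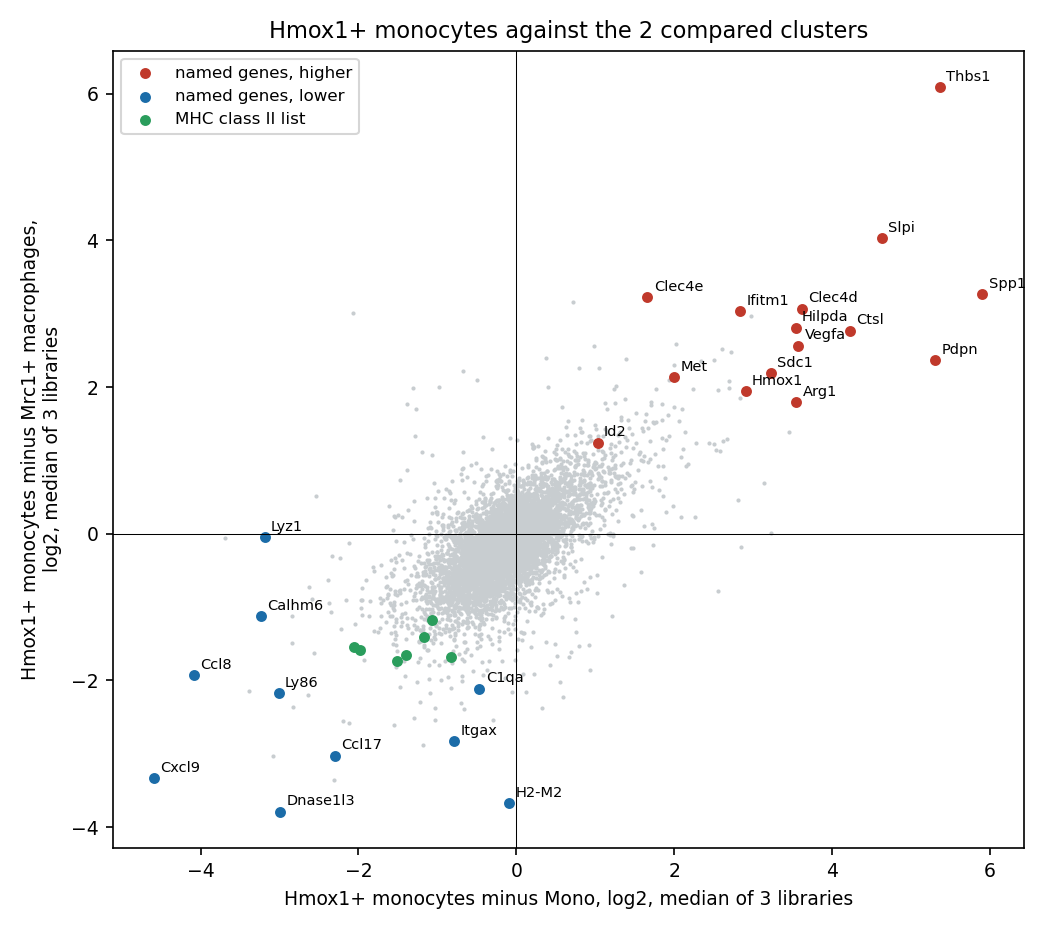
Log2 difference in CP10K + 0.1 of each of the 6952 genes between Hmox1+ monocytes and Mono (horizontal) and Mrc1+ macrophages (vertical), as the median of 3 libraries; named genes are in red and blue and the MHC class II list is in green. The 2 axes share the Hmox1+ monocytes, so points near the diagonal are not independent; Spp1 lies at 5.90 and 3.27 and Cxcl9 at -4.59 and -3.33.

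Gene lists were then used to describe pathways and cell types. Members are counted where they differed by more than 1 in all 3 libraries, and the shares of all genes that did so are those given above. The lists were drawn up with earlier results of these data known. MHC class II genes encode the antigen-presenting molecules on which the cells were gated. Against Mono, 5 of its 7 measured genes were lower (H2-Ab1, H2-Eb1, Cd74, H2-DMa and H2-DMb1), and against Mrc1+ macrophages all 7. H2-Ab1 was at 48.3, 47.7 and 36.3 CP10K, against 91.6 to 128 in Mono and 107 to 152 in Mrc1+ macrophages. Cd74, the invariant chain, was at 101, 63.5 and 83.2 against 134 to 267 and 144 to 314. The median of the list was -1.40 and -1.58, with all genes at -0.12 in both comparisons.

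Of the heme and iron genes, Hmox1, Fth1 and Slc11a1 were higher than in Mono, 3 of 16 measured, with a list median of 0.20. Against Mrc1+ macrophages Hmox1 alone was past 1, and the list median was 0.10. Fth1, the ferritin heavy chain that stores iron, was at 449, 335 and 462 CP10K, against 79.3 to 204 in Mono and 77.9 to 291 in Mrc1+ macrophages. Slc11a1, a phagosomal metal transporter, was at 1.83, 1.29 and 1.75. Blvrb, a biliverdin reductase downstream of heme oxygenase, was at 1.34, 1.16 and 2.39, below Mrc1+ macrophages in each library (-1.95, -0.97 and -0.45). The scavenger receptor gene Cd163 was at 0.0474 CP10K or less in all 3 libraries.

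NRF2 targets, the genes of the oxidative stress response that often accompany Hmox1, showed few members past 1. Srxn1, sulfiredoxin, and Sqstm1, the autophagy receptor p62, were higher than in Mono, 2 of 17, by 1.75 ± 0.35 and 1.20 ± 0.09. The list median was 0.68, and by library 0.12, 0.68 and 0.97. Against Mrc1+ macrophages only the transporter gene Abcc1 was past 1 (1.11 ± 0.09) and the list median was 0.30. Nqo1, a widely used NRF2 target, was at 0, 0.0142 and 0.0160 CP10K, under the level at which genes were compared. Of the 6 regulators, which include Nfe2l2 (NRF2) and Bach1, none was past 1 in either comparison. Heat shock genes likewise had none of 8.

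Hypoxia and glycolysis genes counted only Vegfa and Hilpda of 16 in both comparisons. The enzymes differed by library. Ldha, lactate dehydrogenase A, stood at -0.25, 0.32 and 1.58 relative to Mono and Pgk1, phosphoglycerate kinase, at -0.21, 0.78 and 2.44. For both, BMT replicate 1 was below Mono and the BMT + T cells library was furthest above. The list median followed, at -0.24, 0.35 and 1.72.

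The lipid-associated macrophage list had 4 of 12 members above Mono. These were Spp1, Plin2 (lipid droplet coat, 2.08 ± 0.42), Lgals3 (galectin 3, 1.43 ± 0.48) and Abca1 (cholesterol efflux, 1.87 ± 0.63). Against Mrc1+ macrophages Spp1 and Plin2 were past 1. Trem2, the receptor best known for that state, was not among them, with 0.55, 0.74 and -0.45 relative to Mono. Of 19 lysosomal genes, Ctsl and Cd63 were higher than in Mono.

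Of 16 classical monocyte genes, 7 were higher than in Mrc1+ macrophages (Plac8, Ly6c2, Vcan, F13a1, Thbs1, Hp and Clec4e) and none lower. Against Mono, Plac8 and Lyz1 were among the lower genes and Fn1, Thbs1 and Clec4e were higher. Plac8 was at 3.81, 9.31 and 1.20 CP10K in Hmox1+ monocytes, 5.38 to 24.2 in Mono and 0.245 to 1.72 in Mrc1+ macrophages. Of 18 macrophage genes, C1qa, C1qb, C1qc, Ms4a7, Ccl24 and Ccl8 were lower than in Mrc1+ macrophages while Arg1 and Pf4 were higher. Against Mono, Arg1, Pf4 and Stab1 were higher and Ccl8 and Selenop lower. Pf4, a platelet-type chemokine also made by macrophages, was at 13.1, 12.0 and 40.0, against 1.69 to 8.06 in Mrc1+ macrophages. In Mono it was at 0.210, 1.88, 18.7 and 14.3, which overlaps with Hmox1+ monocytes although each library was higher than its own Mono.

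Inflammatory cytokines had 5 of 14 members above Mrc1+ macrophages. These were Il1b, Ccl4, Il1rn, Nfkbia and Osm, and Ccl5 was lower. Il1rn, the interleukin-1 receptor antagonist, was above Mono too, at 13.3, 9.76 and 5.09 CP10K against 0.255 to 4.88. Il1b itself was at 13.2, 28.4 and 13.7, against 4.69 to 19.5 in Mono, with which it overlapped. Of 12 matrix and repair genes, Thbs1, Fn1 (fibronectin) and Ecm1 were above Mono, and Mmp12 was below Mrc1+ macrophages. Cell cycle genes were sparse, with 3.40 to 5.03 CP10K summed over the list, against 6.38 to 12.6 in Mono. Of 5 cell cycle genes compared, Mki67 was lower than in Mono and Stmn1 lower than in Mrc1+ macrophages. None of 9 Langerhans genes was past 1 against Mono, and Mfge8, Cdh1 and Hpgds were lower than in Mrc1+ macrophages.

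The remaining lists held few members past 1. Of 8 nonclassical monocyte genes, only Itgal was, and it was lower than in Mrc1+ macrophages. Of 12 ID and TGF-beta genes, only Id2 was higher, against Mrc1+ macrophages. Mgl2 and Batf3 of 12 migratory dendritic genes were lower than in Mono, and these with Ccl17, Itgax and Dcstamp than in Mrc1+ macrophages. Rsad2 was the interferon-stimulated gene that was higher in both comparisons, while Cxcl9 was lower in both and Gbp2 lower than in Mono, out of 12. Ddit4 of 9 integrated stress genes was above Mono and Herpud1 below Mrc1+ macrophages. Ier3 of 12 immediate early genes was above Mrc1+ macrophages. Of 13 phagocyte receptor genes, Clec4d was higher in both comparisons, Trem1 higher and Axl lower than in Mrc1+ macrophages. None of 11 transcription factor genes was past 1 in either.

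**Figure D5:**
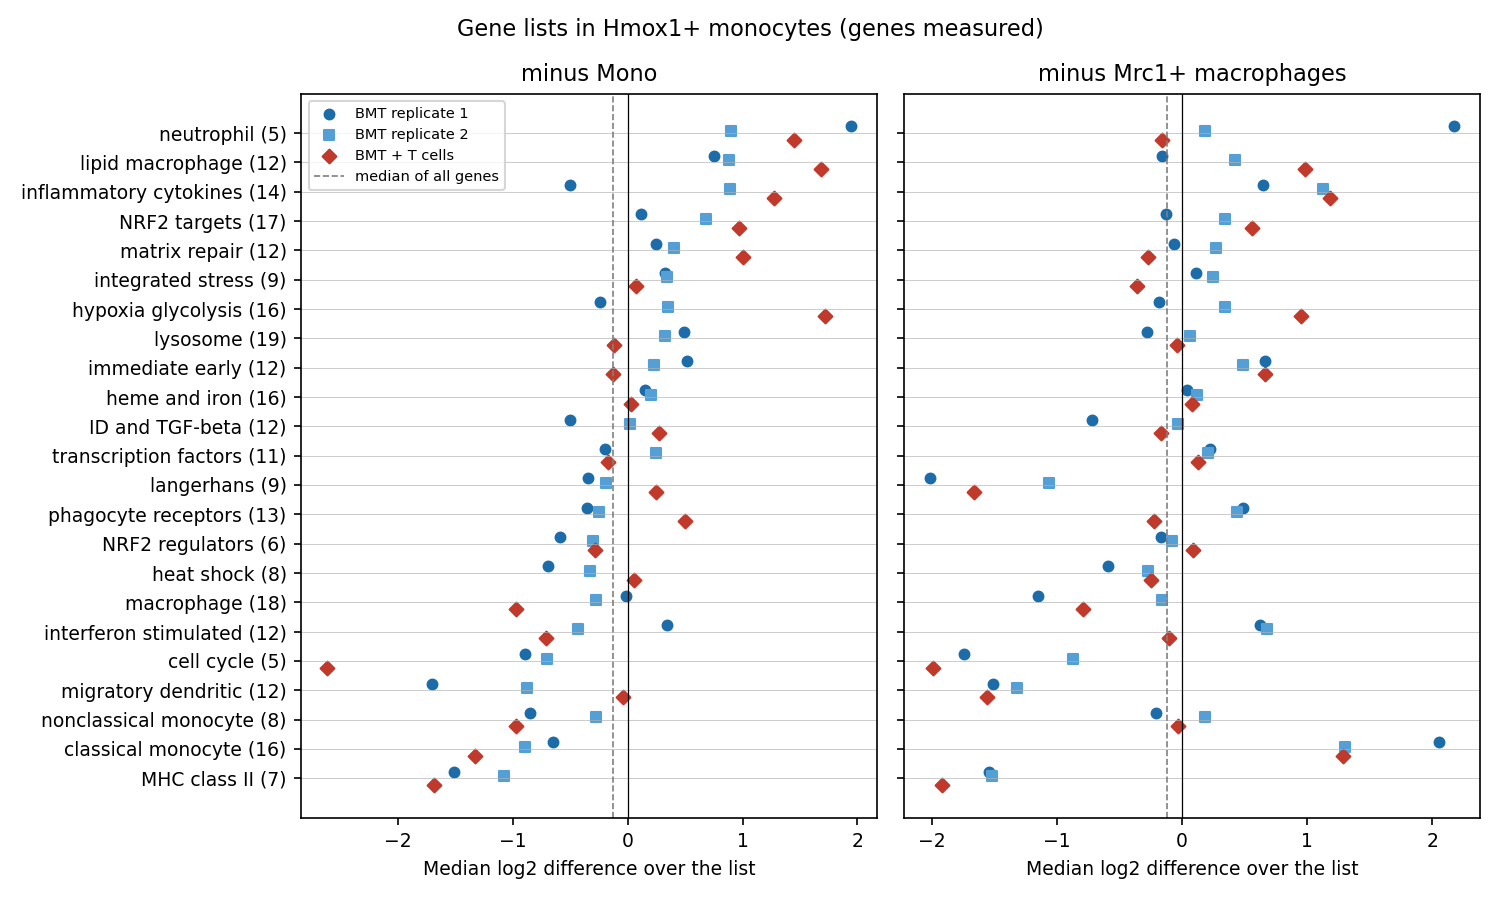
Median log2 difference of the measured members of each gene list between Hmox1+ monocytes and Mono (left) or Mrc1+ macrophages (right); each point is 1 library, the dashed line is the median of all genes and the number of members is in brackets. MHC class II lies at -1.51, -1.07 and -1.68 against Mono, and classical monocyte genes change side between the panels.

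Markers of other cell types were summed over each list. Neutrophil genes summed to 8.99 to 52.1 CP10K over the 3 libraries of Hmox1+ monocytes, 1.46 to 5.81 in Mono and 1.88 to 11.6 in Mrc1+ macrophages. The highest sum was BMT replicate 1, where S100a8 alone was at 40.9 CP10K, against 3.99 in BMT replicate 2 and 6.38 in the BMT + T cells library. S100a9 was at 7.14, 1.20 and 1.15, while the granule genes Camp and Ltf were at 0 in all 3 libraries. Slpi, also a neutrophil gene, was highest in the same library, and the part of neutrophil RNA in the values of BMT replicate 1 was not tested. Of the 12 neutrophil genes listed, 5 could be compared, and of these Il1r2 was past 1 against Mono and Mmp8 against Mrc1+ macrophages. Keratinocyte markers summed to 0.751 to 2.97 CP10K in Hmox1+ monocytes, 0.569 to 2.23 in Mono and 0.990 to 2.54 in Mrc1+ macrophages. T cell markers summed to at most 0.110, with 6 of 11 at 0, among them Cd3d, Cd3g and Cd8a. Mast cell markers summed to at most 0.0464, melanocyte markers to at most 0.0178 and stromal markers to at most 1.24. The only erythroid marker listed, Hbb-bt, was at 0.

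The median depth of Hmox1+ monocytes was 7324.5, 3751 and 8924 UMIs, against 10821, 5382 and 11693 in Mono of the same libraries. Their median mitochondrial share was 2.28, 2.31 and 1.72%, against 1.94, 2.23 and 1.93%. Only 4 of the 259 cells, all in the BMT + T cells library, had under 500 genes or over 20% mitochondrial UMIs. The deposited latent time, which orders cells by RNA velocity from 0 to 1, had medians of 0.327, 0.314 and 0.345, against 0.207, 0.244 and 0.313 in Mono. The medians were later than in Mono in all 3 libraries, and the interquartile ranges overlapped in BMT replicate 2 (0.262 to 0.362 and 0.207 to 0.289) and the BMT + T cells library (0.296 to 0.431 and 0.275 to 0.337). Velocity pseudotime, another deposited ordering, was later in BMT replicates 1 and 2 (0.0680 and 0.0745 against 0.0300 and 0.0373) but earlier in the BMT + T cells library (0.0789 against 0.108). The part of depth in the differences was not tested, beyond the thinned values.

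The share of Hmox1+ monocytes among donor cells was 0.933% in BMT replicate 1 (95% Clopper-Pearson interval 0.599 to 1.39), 1.47% in BMT replicate 2 (1.22 to 1.75) and 2.65% in BMT replicate 3 (0.980 to 5.69). The BMT + T cells library held 14.7% (12.2 to 17.6). The intervals cover counting error only. The library labelled with T cells lay above all 3 BMT libraries. With 1 library of that label no test was made, and the BMT libraries may also have received T cells. Shares of 1 library sum to a fixed total and are not independent of the other clusters.

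The label comparison asks whether Hmox1+ monocytes of the BMT + T cells library differed in expression from those of BMT replicates 1 and 2. The cells were not chosen by label, so limma was fitted on the library means of the 3 clusters. The spread of the BMT + T cells library itself is not measured with 1 library, and the fit assumes that it varies like the others. The library names take 2 forms, and BMT replicate 3 shares its form with the BMT + T cells library while BMT replicates 1 and 2 share the other. The sources do not say that this is a batch, and in Hmox1+ monocytes the label and the form cannot be told apart. The paper names separate sorting and sequencing experiments without assigning libraries to them. Cxcl9 in Mono, at 26.1 and 19.6 against 0.975 and 2.76, split by the form. With the form as a term 0 genes were called, and 426 had an unadjusted p under 0.05. No gene of 6952 (0%) passed an adjusted p of 0.05 with a difference above 1. At an unadjusted p under 0.05 there were 235 genes, and the median of all genes was 0.11. The 5 of lowest p were Prss50, Ly6c2, Ly6a2, Fcgr4 and Ms4a4c. Prss50, a serine protease gene best known from testis, was at 0.0482, 0.0885 and 1.37 CP10K in Hmox1+ monocytes, the last in the BMT + T cells library, and at most 0.111 in the other 2 clusters (3.16, SE 0.50, limma adjusted p = 0.218, and 4.06e-06 to 1.00 over the alternatives). The other 4, which include the monocyte surface gene Ly6c2 and the IgG receptor gene Fcgr4, were lower in the BMT + T cells library, each with an adjusted p of 1.00. Ly6c2 was at 7.16 and 5.41 CP10K and then 1.63, and Ms4a4c at 5.55 and 2.37 and then 0.912. Fcgr4 was at 0.986, 1.00 and 0.265, and Ly6a2 at 0.663, 0.449 and 0.0540. These 5 were picked for their low p, so the lack of overlap between their groups follows from that choice and is no further support. For Prss50, the 1.37 in the BMT + T cells library was by itself enough to pass the floor of 0.1 CP10K for genes compared. Its place in both label contrasts is thus partly set by the value compared.

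Of the markers, Hmox1 itself stood 1.30 above BMT under the T cell label (SE 0.52, unadjusted p = 0.0268, limma adjusted p = 1.00), and Id2 differed by -0.16 (SE 0.35, adjusted p = 1.00). Spp1 (0.41, SE 0.55), Ctsl (0.03, SE 0.66), Vegfa (-0.47, SE 0.75) and Arg1 (0.52, SE 1.61) likewise did not pass. With 2 libraries against 1, such standard errors leave room for differences of more than 1 log2 unit in either direction for Ctsl, Vegfa and Arg1. A missed threshold does not show that the cells were alike.

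The difference was also set against the same label difference in Mono and Mrc1+ macrophages. Again no gene was called (0%), with 270 at an unadjusted p under 0.05. The 5 of lowest p were Prss50, Thbs1, Ccl7, Mif and Clcn4. Thbs1 was lower by 2.65 (SE 0.78) in Hmox1+ monocytes, and by 4.27 (SE 0.82) beyond the other clusters, where it was at 0.908 and 1.02 CP10K in the BMT + T cells library and at most 0.489 in any BMT library (limma adjusted p = 0.700, and 0.000315 to 1.00 over the alternatives). Ccl7, a monocyte-attracting chemokine gene, was at 8.02, 2.36 and 0.768 in Hmox1+ monocytes and highest in the BMT + T cells library among Mono, at 3.65 (-3.43, SE 0.72, adjusted p = 0.974). Mif, a cytokine gene, was at 3.69, 5.90 and 11.1, and in Mono at 5.75, 4.73, 3.59 and 2.11 (1.92, SE 0.44, adjusted p = 0.998). Clcn4 was at 0.654, 0.714 and 0.223 (-1.72, SE 0.43, adjusted p = 0.998).

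BMT replicate 3 entered none of these comparisons, since it held 6 Hmox1+ monocytes. In those cells Hmox1 was at 17.5 CP10K (44 UMIs, 5 cells) and Ctsl at 45.1 (266 UMIs, 6 cells). Arg1 was at 30.4, Clec4d at 7.54 and Spp1 at 7.49. All 5 were above Mono and Mrc1+ macrophages of the same library. Id2 went the other way, at 1.00 CP10K (9 UMIs in 2 cells) against 4.43 in Mono, and Thbs1 and Vegfa had 1 UMI each.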

How the data were processed

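Donor CD11b+MHCII+ cells from the epidermis were measured in 4 libraries by 10x 5' single-cell RNA sequencing. Per the labels, reads were processed with kallisto, bustools and Seurat on GRCm38. The deposited expression values are natural log values that the authors computed as ln(1 + CP10K), where CP10K is a cell's UMIs of a gene scaled to 10000. They were deposited with clusters, a percent of mitochondrial UMIs and a latent time (a fraction from 0 to 1) per cell. The authors describe removing cells under 500 genes or over 20% mitochondrial reads and doublets, and no doublet caller was run here. UMIs recovered from the values were whole within 0.001 for 100% of 28329689 values above 0, in 15155 genes. These genes made up 91.27% of the UMIs in the median cell. CP10K was averaged over the cells of each cluster in each library with 20 or more cells, and genes with a mean of at least 0.1 over the 11 library-by-cluster means were kept (6952). Differences are on the log2(CP10K + 0.1) scale, which understates the change of low genes. Since the files hold log values, no count model was the main test.

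Clusters were described, not tested, by genes past 2 log2 units in every library. Label contrasts used limma 3.58.1 (R 4.3.3) with trend and robust settings and library as a block (duplicateCorrelation, 0.2612, statmod 1.5.0), on the means of Hmox1_Mono, Mono and Mrc1_Mac, with Benjamini-Hochberg adjustment. The p-values measure only the spread between these libraries, which may be technical. The fit was also run on simulated data with known changes. Their spread between libraries was set in advance and not taken from these libraries, so the run does not show how the fit performs here. Other calculations used Python 3.11.15, pandas 2.3.3 and SciPy 1.17.1.

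Named genes are the markers and list genes, the 10 highest and 10 lowest past 2 in each comparison, the first 15 above every other cluster, and for each label contrast the 5 of lowest p, as none was called. The genes of BMT replicate 3 and the members of lists named otherwise were picked after their values were seen. The members and lists were chosen with earlier results of these data known. Alternatives were other pseudocounts, no filter, log means, summed UMIs, filtered or thinned cells, each library left out, a fit of 1 cluster, a term for library names and no block. Keratinocyte and host libraries were not used here, and 1 list gene is not reported here.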

Additional observations from a re-analysis of the deposited data

Results flagged for a closer look

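The BMT + T cells library lay on the opposite side of 0 from BMT replicates 1 and 2 for 1425 of 6952 genes relative to Mono and for 1408 relative to Mrc1+ macrophages, most of them not named here. The 15 such differences of genes named in the text are given. None of these contrasts between labels was tested as such, and with 1 library of that label it cannot be told apart from the library. Ccl7 and Clcn4 were named for the lowest p of the label difference beyond the other clusters, and Fcgr4 and Ms4a4c for that of the label difference.

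Relative to Mono, on the log2(CP10K + 0.1) scale, Ccl17 was at 1.34 in the BMT + T cells library and at -7.03 and -2.30 in BMT replicates 1 and 2. Ccl24 was at 0.51, against -3.42 and -1.55. The membrane protein gene H2-M2 was at 0.43, against -2.12 and -0.09, Slc7a2 at 0.35, against -2.70 and -1.19, and Tnfsf13b at 0.22, against -2.59 and -1.30. Ccl7 went the other way, at -2.11 against 3.32 and 1.05, as did Clcn4, at -0.64 against 0.52 and 0.61. Of the list genes, Cdh1 was at 1.27, against -3.34 and -0.69, F13a1 at -0.84, against 1.95 and 0.38, Mrc1 at -1.74, against 1.54 and 0.66, and Trem2 at -0.45, against 0.55 and 0.74.

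Relative to Mrc1+ macrophages, Clcn4 was at -1.79, against 0.37 and 0.49. Fcgr4 was at -0.61, against 0.49 and 0.46, Ms4a4c at -0.55, against 1.69 and 0.74, and Mrc1, for which that cluster is named, at -0.51, against 1.25 and 0.27.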

How the results depend on the processing

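Counts past 2 in every library moved with the pseudocount and the scale of averaging. Against Mono the 30 genes became 4 with a pseudocount of 1 (Clec4d, Ctsl, Pdpn and Spp1), 69 with 0.01 (41 higher, 28 lower) and 4 with means of the deposited log values, and 30 to 54 with each library left out. Against Mrc1+ macrophages the 23 became 5 with a pseudocount of 1 (Clec4d, Clec4e, Ctsl, Slpi and Spp1), 57 with 0.01 (23 higher, 34 lower), 3 with log means and 23 to 45 with each library left out. The count was 54 without the BMT + T cells library and 46 without BMT replicate 2 against Mono, and 45 without BMT replicate 2 and 40 without BMT + T cells against Mrc1+ macrophages. With sums of UMIs, 13 genes were higher and 7 lower than in Mrc1+ macrophages, in place of 10 and 13. List genes past 1 numbered 96 with both comparisons added, so a gene past 1 in both counted 2 times. The number was 55 with a pseudocount of 1 and 96 to 130 with each library left out. Each comparison held 270 list genes. Of all 6952 genes, 99 were higher and 76 lower by more than 1 against Mono, and 84 and 93 against Mrc1+ macrophages. The label difference called 0 genes, 2 with a pseudocount of 1 (Prss50 and Thbs1), 8 with no filter, 1 with log means (Thbs1) and 0 to 1 with each library left out (Ccl24 without BMT replicate 1). Beyond the other clusters the count was 0, then 2, 14, 1 and 0 to 1 (Thbs1 without BMT replicate 3). Without BMT replicate 1, BMT replicate 2 or the BMT + T cells library, a cluster gene had to pass in 2 libraries in place of 3, an easier condition. The cause of the changes was otherwise not tested. Among the genes rerun, no cluster difference with a median beyond 2 and no label difference of the lowest-p genes changed sign. Smaller cluster differences and the other list genes were not checked for this. Over the alternatives, 723 values of the cluster genes stayed within the SD of the main setting and 157 moved further. The BMT + T cells library could not be left out of the label contrasts, and fits without BMT replicate 1 or 2 kept the block correlation of all libraries. No paired analysis was possible because the labels share no replicate number. Depth limits low genes: 24 cells of BMT replicate 1 held 177706 UMIs.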
